A study of Mus musculus with 12 samples.

Results

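Autosomal gene expression was compared between differentiated embryonic stem cells of the wild-type female line Pgk12.1 and of the wild-type male line E14. The comparison used 4 of the 12 libraries of the study, 2 of each line. Of 22065 autosomal genes in the count table, 11862 had enough counts to be tested. The labels describe all 4 libraries as WT genotype and C57BL/6 strain. The strain was not checked in the counts, and any difference in genetic background would be part of the difference between lines. Cells had formed embryoid bodies for 3 days in a bacterial dish without LIF, the cytokine that keeps stem cells undifferentiated, and were then cultured for 6 more days at 7.5% oxygen. The study set out to follow X inactivation in female stem cells that lack Rlim, a ubiquitin ligase encoded on the X chromosome. It therefore also holds a female line labelled RlimKO, and undifferentiated cells of all 3 lines grown with LIF, again with 2 libraries each. Those 8 libraries entered the fit to estimate the spread between replicates. Each sex of wild-type cells is represented by a single line, so sex and line cannot be told apart. The labels do not say whether the 2 libraries of a group came from separate cultures, and the p-values therefore rest on a spread that may be technical.

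Embryonic stem cells that aggregate without LIF leave pluripotency and form a mixture of endoderm, mesoderm and ectoderm derivatives, whose proportions vary between lines and between cultures. Stem cell lines can also differ in marks they carry over from culture. Genomic imprints, which restrict a gene to its maternal or paternal copy through DNA methylation, are the classic example, and stem cell lines often differ in the imprinted genes they express. In bulk RNA, fewer cells of a type and less RNA per cell cannot be told apart.

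The 2 Pgk12.1 libraries held 2666390 and 1967780 gene counts after the ribosomal RNA precursor Rn45s and the gene Lars2 were set aside, and the 2 E14 libraries held 2388110 and 5057000. Rn45s had taken 38.5% and 42.4% of the gene counts in the Pgk12.1 libraries, against 22.5% and 6.36% in the E14 libraries. The Pgk12.1 libraries were close to each other, since 44 of 9414 autosomal genes with at least 10 CPM (counts per 1e6 of normalised library size) differed more than 2-fold between them. The E14 libraries were far apart, with 1239 of 9346 such genes (13.3%), and the chi-square of their counts, divided by its degrees of freedom, was 27.2, while the other 5 groups had 1.86 to 2.38. Lars2 had taken 0.862% of the gene counts in E14 replicate 1 and 0.0212% in E14 replicate 2, against 2.71% to 7.84% in the other 10 libraries. The library number of E14 replicate 2 in the labels also lies outside the run of numbers of the other 11 libraries. Whether it was made separately is not stated, and the part this has in the results was not tested. Both lines had left the stem cell state: Pou5f1, the defining transcription factor of pluripotency, stood at 43.8 and 47.7 CPM in differentiated Pgk12.1 and 12.4 and 21.9 CPM in differentiated E14 cells, against at least 660.5 CPM in each undifferentiated library of these lines.

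Each gene was tested with edgeR's quasi-likelihood test, with Benjamini-Hochberg adjustment over all 12417 genes tested on any chromosome and an adjusted p below 0.05 as the threshold. In a model with 1 mean for each of the 6 groups, 1080 autosomal genes passed (9.1% of those tested), 545 higher (4.59%) and 535 lower (4.51%) in Pgk12.1. Because the E14 libraries differed so much, a gene is said here to be higher or lower in Pgk12.1, or to rise or fall, only if it also passed in the same direction against each E14 library alone, in a model in which each E14 library had a mean of its own and a lone library was assumed to vary like the other groups. This left 857 genes (7.22% of those tested), 453 higher (3.82%) and 404 lower (3.41%). Against E14 replicate 1 alone 16.4% of the genes passed, and against E14 replicate 2 alone 33.7%. The median log2 fold change over all autosomal genes was -0.02. Fold changes are log2 values of Pgk12.1 over E14 with their standard error (SE), and every adjusted p is from the 6-mean model.

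**Figure D1:**
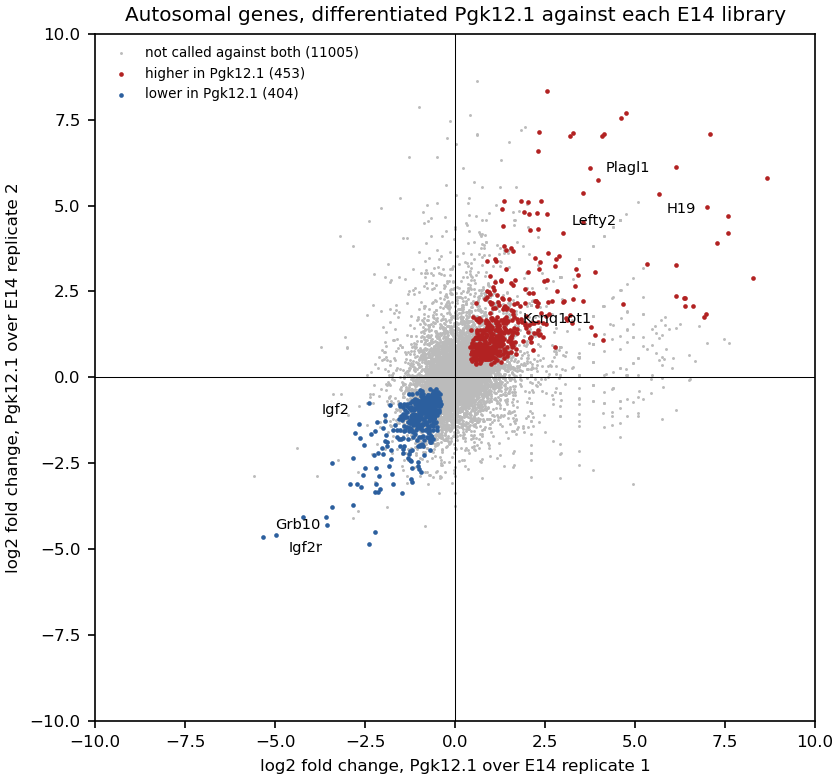
Log2 fold change of each of 11862 autosomal genes in differentiated Pgk12.1 over E14 replicate 1 (x axis) and over E14 replicate 2 (y axis). Red points are the 453 genes higher and blue points the 404 genes lower in Pgk12.1 against both E14 libraries; grey points are the 11005 other genes, and 4127 of all genes lie in the quadrants where the E14 libraries give opposite signs.

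The spread used in these tests is shared with the 5 other groups, which varied less between replicates than E14. In a model of the 4 compared libraries alone, 3 autosomal genes passed, H19, Grb10 and Igf2r, while 1900 had an unadjusted p below 0.05. In the model of all libraries, the 1080 genes became 212 without Pgk12.1 replicate 1, 166 without Pgk12.1 replicate 2, 4030 without E14 replicate 1, 2021 without E14 replicate 2, and 496 without the 4 RlimKO libraries. The 857 genes became 211 and 165 without Pgk12.1 replicate 1 or 2. Of 105 genes named below that rose or fell, 34 passed in each of the 12 fits that left out 1 library: Grb10, Igf2r, H19, Plagl1, Kcnq1ot1, Cdkn1c, Mirg, Tdgf1, Tcl1, Dppa2, Pou5f1, Esrrb, Lefty2, Slc2a1, Ndrg1, Kdm3a, Bnip3, Hk2, Higd1a, Dab2, Lrp2, Cubn, Col4a1, Col9a2, Hand1, Tcf7, Hsp90aa1, Slc35f2, Itga11, Dync1i1, Gria4, Hhip, Mt2 and Hist1h4a. The other 71 did not pass when 1 of the 2 Pgk12.1 libraries was left out.

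Imprinted genes were the list with the highest share of differences. Of 34 tested, 13 were higher and 6 lower in Pgk12.1, which is 55.9% against 7.22% of all autosomal genes, and their median log2 fold change was 0.58. The lower genes were the maternally expressed Grb10, Igf2r, Cdkn1c, Phlda2 and Zim1 together with the paternally expressed Igf2. The higher genes were the maternally expressed RNAs H19, Meg3, Rian and Mirg and the paternally expressed Plagl1, Kcnq1ot1, Nnat, Peg12, Ndn, Rtl1, Nespas, Dlk1 and Impact. The promoters of Grb10, Igf2r and Plagl1, which had the largest differences after H19, are shown first. Imprinted loci are marked at cytosines followed by guanine (CpG). The marked stretch of a locus need not be the promoter printed here, and its place was not examined. Sequences are from RefSeq, build GRCm38.p6, and run 5′ to 3′ on the gene's strand from 250 bases before to 50 bases after an annotated start, with CpG in capitals. The Grb10 promoter (chr11:12037371-12037670, minus strand) holds 45 CpG, the Igf2r promoter (chr17:12769657-12769956, minus strand) 34, and the Plagl1 promoter (chr10:13090582-13090881, plus strand) 26. The median over 32851 promoters of this length is 7. Of all promoters, 1.9% hold at least as many CpG as that of Grb10, 7.7% as that of Igf2r and 16.9% as that of Plagl1. A second annotated Grb10 promoter holds 9. The promoters of the hypoxia list printed further below hold 27 (Bnip3), 24 (Ankrd37) and 18 (Slc2a1), so such counts are not particular to imprinted genes.
Grb10: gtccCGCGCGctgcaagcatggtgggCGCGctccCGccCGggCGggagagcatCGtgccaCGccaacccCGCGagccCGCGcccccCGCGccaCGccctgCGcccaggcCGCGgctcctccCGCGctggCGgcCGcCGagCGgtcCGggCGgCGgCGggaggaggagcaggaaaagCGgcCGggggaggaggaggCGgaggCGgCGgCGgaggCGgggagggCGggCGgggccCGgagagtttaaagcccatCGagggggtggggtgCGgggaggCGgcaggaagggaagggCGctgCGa
Igf2r: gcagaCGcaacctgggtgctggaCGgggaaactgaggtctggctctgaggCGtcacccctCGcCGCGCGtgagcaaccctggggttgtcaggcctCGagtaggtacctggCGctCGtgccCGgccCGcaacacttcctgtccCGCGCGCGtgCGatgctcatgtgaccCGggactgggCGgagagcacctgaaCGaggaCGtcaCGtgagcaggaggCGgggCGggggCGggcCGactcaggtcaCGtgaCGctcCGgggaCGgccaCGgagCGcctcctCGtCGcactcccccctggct
Plagl1: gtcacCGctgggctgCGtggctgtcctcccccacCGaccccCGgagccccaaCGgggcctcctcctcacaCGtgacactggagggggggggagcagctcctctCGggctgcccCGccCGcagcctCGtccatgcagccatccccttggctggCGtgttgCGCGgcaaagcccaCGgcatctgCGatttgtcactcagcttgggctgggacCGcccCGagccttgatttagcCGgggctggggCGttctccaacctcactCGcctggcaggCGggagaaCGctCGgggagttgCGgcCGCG
DNA methylation was not measured, and the letters say nothing of the state of these sites in the cells.

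Grb10 encodes an adaptor protein that restrains insulin and growth factor signalling, and lies on chromosome 11 (chr11:11930508-12038683, GRCm38). It stood at 47.2 and 53.3 CPM in Pgk12.1, against 2027 and 1268 CPM in E14. Both Pgk12.1 libraries were far below both E14 libraries (log2 fold change -5.04 ± 0.23 SE, adjusted p = 5.04e-09). Igf2r, the receptor that clears insulin-like growth factor 2 (chr17:12682406-12769664), stood at 124 and 133 CPM in Pgk12.1, against 4064 and 3122 CPM in E14 (-4.80 ± 0.17, adjusted p = 3.40e-10). The groups were again far apart. In undifferentiated cells Igf2r was at 195 and 176 CPM in Pgk12.1 and 276 and 252 CPM in E14, so the high level was seen in differentiated E14 cells alone among these groups. Differentiated RlimKO cells, the other female line, had 72.0 and 67.5 CPM of Igf2r and 5.92 and 8.32 CPM of Grb10, below both E14 libraries as well. Whether counting used strand is not given, so reads of Igf2r and of its antisense RNA Airn may be mixed where the genes overlap. Airn itself had 110 and 91.8 CPM in Pgk12.1 and 80.6 and 47.4 CPM in E14, and did not pass (0.68 ± 0.28, adjusted p = 0.147).

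H19, a maternally expressed non-coding RNA, and Igf2, the growth factor gene beside it on chromosome 7, went in opposite directions. H19 (chr7:142575529-142578143) stood at 12070 and 13110 CPM in Pgk12.1, against 251 and 314 CPM in E14 (5.47 ± 0.41, adjusted p = 3.52e-06). Igf2 (chr7:142650766-142666816) stood at 2281 and 2114 CPM in Pgk12.1, against 14060 and 5686 CPM in E14 (-2.17 ± 0.42, adjusted p = 0.00636). Neither gene's groups overlapped, although the E14 libraries differed more than 2-fold in Igf2. In undifferentiated cells of both lines H19 was at most 62.4 CPM and Igf2 at most 30.7 CPM. Plagl1, a zinc finger transcription factor known to act on H19 and Igf2, stood at 2271 and 1995 CPM in Pgk12.1 and 138 and 40.1 CPM in E14 (4.63 ± 0.44, adjusted p = 4.08e-05).

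On distal chromosome 7, the long non-coding RNA Kcnq1ot1, which silences its neighbours on the paternal copy, and 2 of those neighbours moved apart. Kcnq1ot1 stood at 1816 and 1767 CPM in Pgk12.1 and 574 and 410 CPM in E14 (1.87 ± 0.17, adjusted p = 2.70e-05). Cdkn1c, a cyclin-dependent kinase inhibitor, stood at 43.4 and 42.1 CPM in Pgk12.1 and 189 and 197 CPM in E14 (-2.17 ± 0.25, adjusted p = 0.000156). Phlda2, which limits placental growth, stood at 4.95 and 4.57 CPM in Pgk12.1 and 21.7 and 11.8 CPM in E14 (-1.76 ± 0.50, adjusted p = 0.0420). None of the 3 genes overlapped between groups, and all 3 had differed the same way in undifferentiated cells (log2 fold changes 1.03, -1.69 and -3.00, adjusted p = 0.0028, 0.027 and 0.0094). Kcnq1ot1 lies antisense within Kcnq1, and whether its reads were counted by strand is not given.

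The remaining imprinted genes that rose lie in several clusters. From the Dlk1 to Meg3 cluster on chromosome 12, the non-coding RNA Mirg stood at 88.0 and 86.2 CPM in Pgk12.1 and 32.3 and 21.5 CPM in E14 (1.73 ± 0.29, adjusted p = 0.00237), and Rtl1, Rian, Dlk1 and Meg3 had log2 fold changes of 1.33, 1.11, 0.95 and 0.64. This cluster lies in a stretch of chromosome 12 with raised medians, described below. Nnat, a membrane protein gene of developing brain, stood at 282 and 286 CPM in Pgk12.1 and 110 and 20.1 CPM in E14 (2.20 ± 0.47, adjusted p = 0.0111). Ndn and Peg12, neighbours in the Prader-Willi region, had log2 fold changes of 1.70 and 1.98, Nespas 1.13 and Impact 0.83. Zim1, on proximal chromosome 7, stood at 151 and 150 CPM in Pgk12.1 and 383 and 303 CPM in E14 (-1.18 ± 0.22, adjusted p = 0.00503). Peg3, Mest and Gnas did not pass (0.71, 0.75 and -0.40, adjusted p = 0.117, 0.149 and 0.227).

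**Figure D2:**
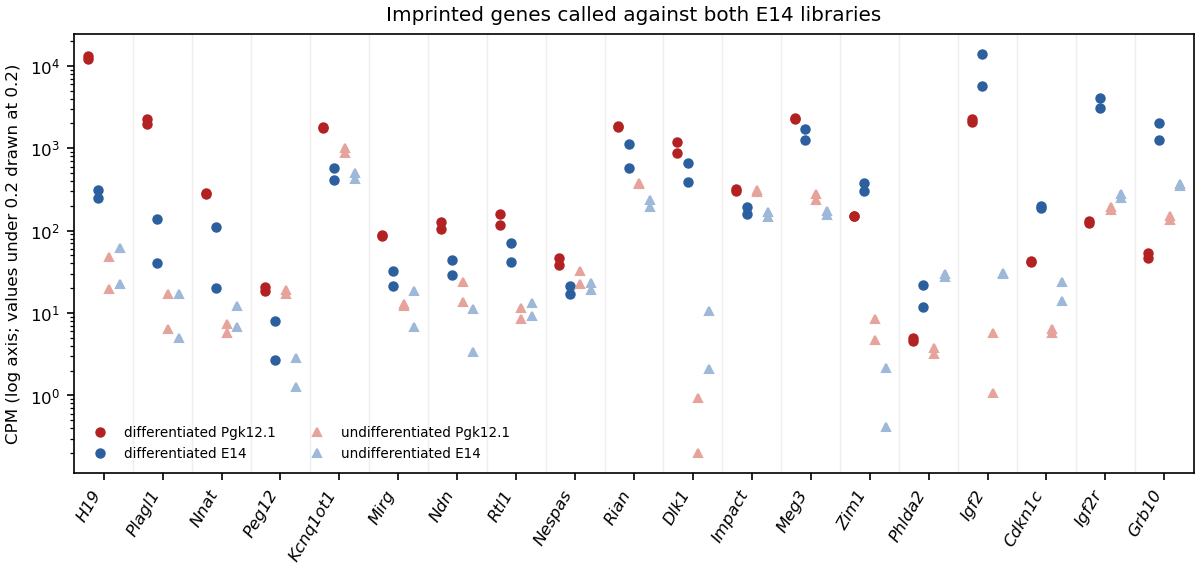
CPM on a log axis of the 19 imprinted genes that differed from both E14 libraries, ordered from the highest to the lowest fold change, with 1 point per library. Differentiated Pgk12.1 (red) and E14 (blue) circles are separated for each gene, from H19 at 12070 and 13110 against 251 and 314 CPM to Grb10 at 47.2 and 53.3 against 2027 and 1268 CPM; triangles are the undifferentiated libraries, and values below 0.2 CPM are drawn at 0.2.

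Of 24 pluripotency genes tested, 8 were higher in Pgk12.1 and none lower (33.3% against 7.22%), and 16 did not pass against both E14 libraries. The median log2 fold change was 0.91 over both E14 libraries, 1.57 over E14 replicate 1 and 0.57 over E14 replicate 2. Against E14 replicate 1 alone 17 passed as higher and none as lower, and against E14 replicate 2 alone 9 as higher and 5 as lower. Genes with negative values over E14 replicate 2, named after their values were seen, were Utf1 (-1.41), Lin28a (-1.19), Klf5 (-0.92) and Sall4 (-0.82). The summed level of the list was 940 and 926 CPM in Pgk12.1 and 472 and 978 CPM in E14, so the Pgk12.1 libraries lay between the E14 libraries. Tdgf1, a co-receptor of Nodal signalling, stood at 54.5 and 58.8 CPM in Pgk12.1 and 5.76 and 11.6 CPM in E14 (2.59 ± 0.24, adjusted p = 2.79e-05). Tcl1, a coactivator of AKT kinase, stood at 21.3 CPM in both Pgk12.1 libraries and 1.77 and 4.55 CPM in E14 (2.56 ± 0.29, adjusted p = 0.000183), and lies in the raised stretch of chromosome 12. Dppa2, a regulator of early embryonic genes, stood at 9.53 and 10.1 CPM in Pgk12.1 and 1.33 and 1.65 CPM in E14 (2.62 ± 0.41, adjusted p = 0.00181). The libraries of the 2 lines did not overlap in any of these genes.

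The core factors moved less. Pou5f1, whose levels are given above, had a log2 fold change of 1.34 ± 0.22 (adjusted p = 0.00243). Esrrb, a nuclear receptor of the naive state, stood at 53 and 54.8 CPM in Pgk12.1 and 12.4 and 26.5 CPM in E14 (1.38 ± 0.25, adjusted p = 0.0038). Nanog stood at 40.8 and 35.5 CPM in Pgk12.1 and 12.0 and 24.0 CPM in E14 (1.01 ± 0.25, adjusted p = 0.0218). In all 3 the higher E14 library was replicate 2. Gdf3 and Fgf4, 2 signalling ligands of pluripotent cells, had log2 fold changes of 2.13 and 0.95, while Sox2, Klf4 and Zfp42 did not pass (0.88, 0.47 and 0.67, adjusted p = 0.0865, 0.437 and 0.144). Lefty2, a secreted Nodal antagonist on the formative and Nodal lists, stood at 45.3 and 40.1 CPM in Pgk12.1 and 5.31 and 2.27 CPM in E14 (3.66 ± 0.29, adjusted p = 5.03e-06). On the formative and primed list as a whole, 1 of 13 genes was higher, Lefty2, and 1 lower, the receptor gene Fzd2, and Otx2 did not pass (adjusted p = 0.384), with 0.886 CPM in one E14 library and 18.0 CPM in the other.

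Genes that respond to low oxygen split in both directions. The 7.5% oxygen of the second culture step applied to both lines. Of 32 hypoxia genes tested, 8 were higher and 2 lower (31.3% against 7.22%), with a median of 0.19. The median was 0.31 over E14 replicate 1 and -0.06 over E14 replicate 2. Against E14 replicate 1 alone 11 passed as higher and 2 as lower, and against E14 replicate 2 alone 12 and 8. The summed level was 8997 and 8597 CPM in Pgk12.1, between 8259 and 11090 CPM in E14. In undifferentiated cells 1 passed as higher and 6 as lower. The promoters of Bnip3 and Ankrd37, which rose, and of Slc2a1, which fell, are printed as examples because the hypoxia-inducible factors bind short sites built on ACGTG or GCGTG. Capitals mark these letters on either strand; CACGTG counts on both strands, and neighbouring matches can overlap. The Bnip3 promoter (chr7:138909457-138909756, minus strand) has 5 matches, the Ankrd37 promoter (chr8:45999801-46000100, minus strand) 4 and the Slc2a1 promoter (chr4:119108495-119108794, plus strand) 2, and 43.8% of all promoters have at least 1. Among the other genes that rose, Ldha has 7 and 2 in its 2 promoters, Higd1a 3, Hk2 2, Stc2 2, Pdk1 2 and 0, and Kdm3a 1, 0 and 0, so the counts of genes that rose lie on both sides of that of Slc2a1. A match is a description of the letters and not a binding site.
Bnip3: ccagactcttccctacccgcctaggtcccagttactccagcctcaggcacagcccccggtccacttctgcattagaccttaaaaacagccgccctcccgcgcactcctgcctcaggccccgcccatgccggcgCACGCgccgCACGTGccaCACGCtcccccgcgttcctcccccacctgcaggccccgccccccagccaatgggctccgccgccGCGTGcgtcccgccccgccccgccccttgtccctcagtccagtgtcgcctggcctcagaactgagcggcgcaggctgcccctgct
Ankrd37: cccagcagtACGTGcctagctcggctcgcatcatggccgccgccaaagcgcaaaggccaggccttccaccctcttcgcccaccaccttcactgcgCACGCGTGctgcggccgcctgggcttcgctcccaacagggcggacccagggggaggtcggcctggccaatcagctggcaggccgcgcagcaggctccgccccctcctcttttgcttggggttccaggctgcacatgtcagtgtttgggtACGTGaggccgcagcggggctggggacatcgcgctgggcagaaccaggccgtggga
Slc2a1: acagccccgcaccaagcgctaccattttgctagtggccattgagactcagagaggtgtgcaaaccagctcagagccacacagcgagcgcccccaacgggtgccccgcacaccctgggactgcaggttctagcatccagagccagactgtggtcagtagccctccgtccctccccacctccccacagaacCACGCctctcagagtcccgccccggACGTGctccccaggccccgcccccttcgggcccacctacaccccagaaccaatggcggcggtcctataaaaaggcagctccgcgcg

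Slc2a1, the glucose transporter GLUT1, stood at 736 and 687 CPM in Pgk12.1 and 1713 and 1787 CPM in E14 (-1.30 ± 0.14, adjusted p = 0.00013). Ndrg1, a stress-responsive growth regulator, stood at 50.3 and 39.1 CPM in Pgk12.1 and 137 and 132 CPM in E14 (-1.58 ± 0.24, adjusted p = 0.00151). Both fell with no overlap and little spread within either line. Bnip3, a mitophagy receptor, stood at 240 and 225 CPM in Pgk12.1 and 95.2 and 115 CPM in E14 (1.13 ± 0.16, adjusted p = 0.00102). In undifferentiated cells Bnip3 was lower in Pgk12.1, at 65.7 and 76.3 CPM, than in E14, at 140 and 161 CPM, and the difference between the states passed the test (2.22, adjusted p = 0.00052). Hexokinase 2, Hk2, stood at 299 CPM in both Pgk12.1 libraries and 130 and 176 CPM in E14 (0.96 ± 0.16, adjusted p = 0.0024), and the glycolytic genes Pdk1 and Ldha had log2 fold changes of 0.83 and 0.65. Higd1a, Stc2 and Ankrd37 had 1.36, 1.47 and 1.86. Kdm3a, a histone demethylase, had 1.15 ± 0.16 (adjusted p = 0.000888) and lies in a raised window of chromosome 6 described below, and Ankrd37 lies on chromosome 8, which was raised as a whole. Hk2 lies in the window next to that of Kdm3a, whose median was 0.28 above the autosomal one. Vegfa, the vascular growth factor, did not differ beyond its error (-0.05 ± 0.16, adjusted p = 0.882).

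**Figure D3:**
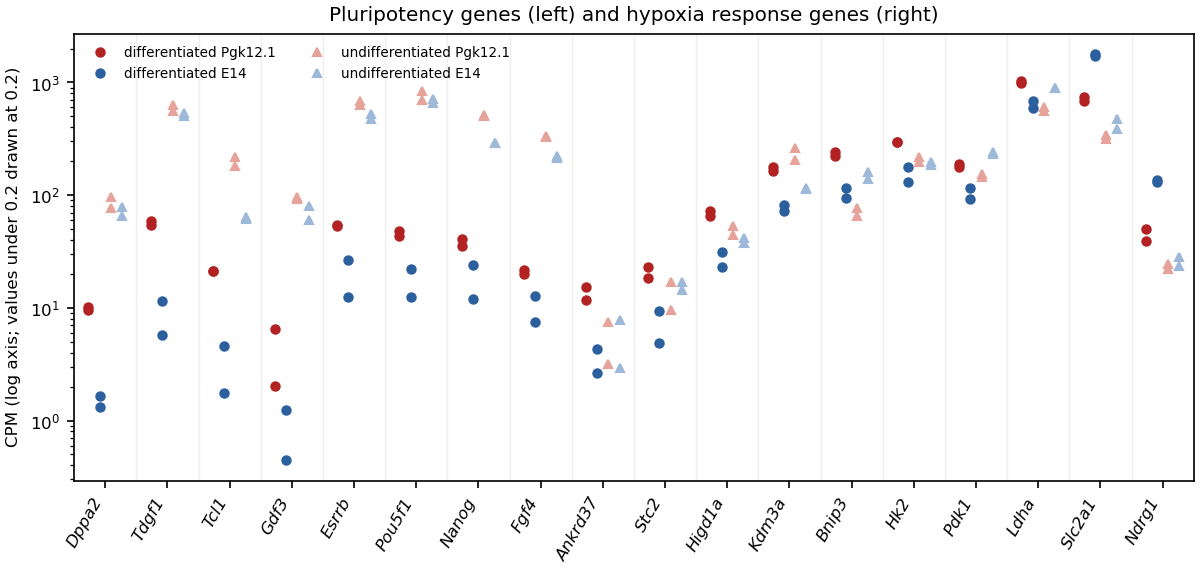
CPM on a log axis of the 8 pluripotency genes (left) and 10 hypoxia genes (right) that differed from both E14 libraries, 1 point per library. Differentiated Pgk12.1 circles (red) lie above E14 circles (blue) for every gene except Slc2a1 and Ndrg1, and the triangles of undifferentiated cells show pluripotency genes far above their level after differentiation.

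Among extraembryonic and endoderm lists few genes differed from both E14 libraries. None of 12 endoderm transcription factors passed: Gata4 stood at 118 and 114 CPM in Pgk12.1 and 108 and 173 CPM in E14, and Gata6 at 151 and 142 CPM and 120 and 48.2 CPM. Of 16 visceral endoderm serum and uptake genes, 1 was higher and 3 lower (25% against 7.22%). Against E14 replicate 1 alone 3 passed as higher and 3 as lower, and against E14 replicate 2 alone 1 as higher and 13 as lower, with medians of -0.16 and -1.32. The endocytic receptors of this tissue went apart: Cubn stood at 93.0 and 91.3 CPM in Pgk12.1 and 30.1 and 14.3 CPM in E14 (2.10 ± 0.35, adjusted p = 0.00243), whereas its partner Lrp2 stood at 104 and 97.4 CPM in Pgk12.1 and 202 and 281 CPM in E14 (-1.26 ± 0.20, adjusted p = 0.00184). Dab2, an adaptor of the same uptake route, stood at 257 and 252 CPM in Pgk12.1 and 509 and 502 CPM in E14 (-0.99 ± 0.15, adjusted p = 0.00148). The groups were apart in all 3 genes. The lipocalin Apom was also lower (-2.29 ± 0.55, adjusted p = 0.0186). The serum protein Afp stood at 113 and 122 CPM in Pgk12.1, between the 73.1 and 208 CPM of the E14 libraries. Of 11 trophoblast genes, 3 transcription factors were lower and none higher (27.3%): Hand1, which is also a mesoderm factor (-1.92 ± 0.25, adjusted p = 0.0006), Tead4 (-1.38 ± 0.33, adjusted p = 0.0185) and Gata2 (-1.77 ± 0.51, adjusted p = 0.0433). Cdx2 and Eomes, the defining factors of that list, had 7.24 and 5.58 CPM and 8.76 and 8.12 CPM in Pgk12.1, against 10.6 and 4.76 CPM and 5.76 and 8.69 CPM in E14.

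Parietal endoderm and basement membrane genes, taken as 1 list, went both ways. Of 15 tested, Col4a1, Col4a2 and Srgn were higher and Nid2 and Hspg2 lower (33.3% against 7.22%). Srgn was at a low level, with 10.7 and 9.64 CPM in Pgk12.1 and 0 and 0.62 CPM in E14. Col4a1, a chain of type IV collagen, stood at 2866 and 2830.0 CPM in Pgk12.1 and 1265 and 1085 CPM in E14 (1.28 ± 0.15, adjusted p = 0.000206), and its partner chain Col4a2 had 0.80 ± 0.21 (adjusted p = 0.0273). Both lie on chromosome 8. Perlecan, Hspg2, stood at 1379 and 1096 CPM in Pgk12.1 and 2357 and 2228 CPM in E14 (-0.89 ± 0.17, adjusted p = 0.00587), and Nid2 had -0.88 ± 0.15. The laminin chain Lama1 was close to equal, at 592 and 587 CPM in Pgk12.1 and 655 and 634 CPM in E14.

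Mesenchymal genes were abundant in both lines. Of 33 fibroblast and interstitial collagen genes, 4 were higher (Col6a1, Col5a2, Cdh11, Ogn) and 2 lower (Fn1, Tgfbi), which is 18.2% against 7.22% of all autosomal genes. Against E14 replicate 1 alone 6 passed as higher and 9 as lower, and against E14 replicate 2 alone 20 as higher and 3 as lower. The summed level was 31350 and 27290 CPM in Pgk12.1 and 40910 and 18570 CPM in E14, on either side. Fibronectin, Fn1, stood at 4432 and 3176 CPM in Pgk12.1 and 11040 and 6464 CPM in E14 (-1.20 ± 0.22, adjusted p = 0.00455), and had differed similarly before differentiation (-1.22). Col6a1 stood at 332 and 302 CPM in Pgk12.1 and 158 and 95.1 CPM in E14 (1.34 ± 0.24, adjusted p = 0.00473). The main interstitial collagens Col1a1 and Col1a2 did not pass (0.01 and 0.52, adjusted p = 0.996 and 0.529), with E14 libraries at 5661 and 2422 CPM of Col1a1 on either side of the Pgk12.1 values of 4927 and 3182 CPM. Of 14 cartilage and bone genes, 3 were higher (21.4%): the cartilage collagen chains Col9a2 (1.94 ± 0.29, adjusted p = 0.00125) and Col11a1 (1.66 ± 0.32, adjusted p = 0.00557) and osteopontin, Spp1 (1.38 ± 0.36, adjusted p = 0.0307). Spp1 had also been higher in undifferentiated Pgk12.1 cells.

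In epithelial, muscle and neural lists, 1 to 3 genes differed from both E14 libraries, which is 5% to 13% of each list against 7.22% of all autosomal genes. The simple keratins Krt8 (-0.92 ± 0.20, adjusted p = 0.0108) and Krt18 (-1.57 ± 0.32, adjusted p = 0.00758) and the desmosomal gene Dsp (-0.45 ± 0.13, adjusted p = 0.0443) were lower, out of 23 epithelial genes (13%). Over all 23 genes the median was 0.65 over E14 replicate 1 and -1.10 over E14 replicate 2. Against E14 replicate 1 alone 6 passed as higher and 3 as lower, and against E14 replicate 2 alone 2 as higher and 19 as lower. Krt18 stood at 195 and 222 CPM in Pgk12.1 and 335 and 895 CPM in E14. Of 17 smooth muscle genes, Csrp1 was lower (-0.92 ± 0.19, adjusted p = 0.009), and Acta2, at 1883 and 1841 CPM in Pgk12.1 and 3575 and 2872 CPM in E14, did not pass (-0.79 ± 0.25, adjusted p = 0.0606). Of 20 cardiac genes, the atrial light chain gene Myl4 was lower (-2.75 ± 0.70, adjusted p = 0.0249), with E14 at 21.3 and 78.2 CPM. Of 20 neural genes, Dlk1 and the progenitor filament gene Nes were higher, with Nes at 214 and 234 CPM in Pgk12.1 and 148 and 87.9 CPM in E14 (0.94 ± 0.22, adjusted p = 0.0174), while the defining neural factors Pax6 and Sox1 had at most 1 count in the 4 libraries. Of 9 neural crest genes the pigment cell factor Mitf was higher (1.62 ± 0.42, adjusted p = 0.0274), and of 7 kidney and intermediate mesoderm genes Osr1 was, with 41 counts in Pgk12.1 and 1 count in E14 (ratio of normalised counts 63.3, 95% counting interval 10.7 to 2560).

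For many lists the direction of the median depended on which E14 library was used. Fibroblast genes had medians of -0.14 over E14 replicate 1 and 1.60 over E14 replicate 2, epithelial genes 0.65 and -1.10, streak and early mesoderm genes -0.38 and 0.63, heat shock and stress genes 0.25 and -0.61, and p53 targets 0.48 and -0.21. Single genes followed this less closely. Over all autosomal genes tested, 4127 of 11862 changed sign between the E14 libraries. Sign changed for 11 of 33 fibroblast, 10 of 23 epithelial and 7 of 16 streak and early mesoderm genes. It changed for 3 of 15 heat shock and stress genes and 12 of 19 p53 targets. The widest gaps were in blood, endothelial and Hox genes. The 10 embryonic blood genes tested had a median log2 fold change of -0.93 over E14 replicate 1 and 3.03 over E14 replicate 2, and 8 of them changed sign. Their summed level, over the 25 genes of the list found in the table, was 242 and 220 CPM in Pgk12.1, between 602 and 64.5 CPM in E14. Embryonic globin Hbb-bh1 stood at 43.1 and 40.6 CPM in Pgk12.1 and 199 and 5.17 CPM in E14. Of 18 endothelial genes, 16 changed sign, with medians of -1.13 and 2.35; Cdh5, the cadherin of endothelial junctions, stood at 24.8 and 29.9 CPM in Pgk12.1 and 106 and 3.52 CPM in E14. The clotting factor Vwf was the 1 endothelial gene higher against both (1.79 ± 0.42, adjusted p = 0.0174). The 10 Hox genes had medians of -1.43 and 0.97, with summed levels of 109 and 106 CPM in Pgk12.1 and 283 and 65.1 CPM in E14, and none of the 10 Hox or 10 blood genes passed against both libraries. Of the 5 macrophage genes tested, Cx3cr1 was higher, with 42 counts in Pgk12.1 and 2 counts in E14 (ratio 32.4, interval 8.43 to 276).

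**Figure D4:**
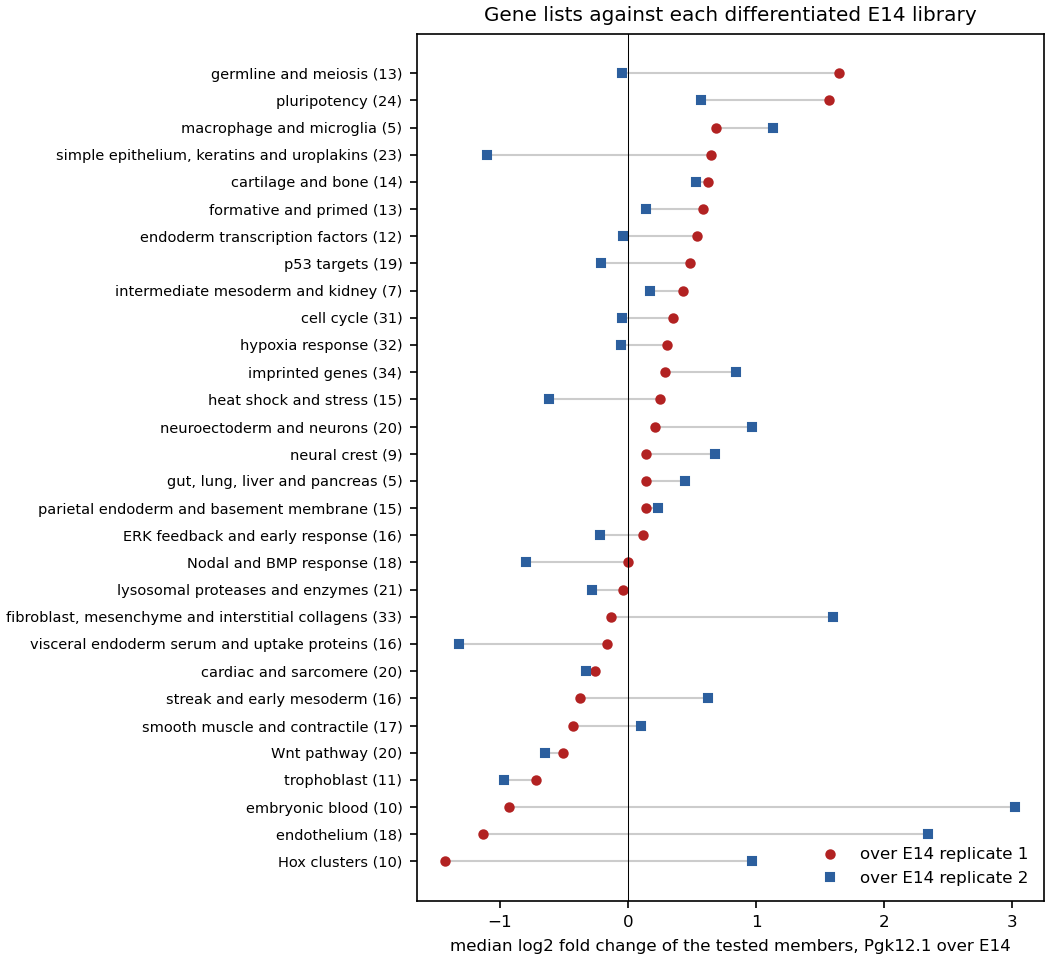
Median log2 fold change of the tested members of each of 30 gene lists in differentiated Pgk12.1 over E14 replicate 1 (circles) and over E14 replicate 2 (squares), with the number tested in parentheses. Pluripotency, imprinted and cartilage genes lie right of 0 against both libraries, trophoblast and Wnt genes left of 0, and embryonic blood, endothelial and Hox genes on opposite sides of 0.

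Of 31 cell cycle genes 6 differed from both E14 libraries (19.4%), and the median of the list was 0.02, with 0.35 over E14 replicate 1 and -0.05 over E14 replicate 2. The 5 that were higher were Mcm6 and Mcm7 of the replicative helicase, the replication clamp Pcna, the ribonucleotide reductase gene Rrm2 and the cyclin Ccnd1, and Cdkn1c was lower. Mcm7 stood at 210 and 189 CPM in Pgk12.1 and 123 and 125 CPM in E14 (0.69 ± 0.14, adjusted p = 0.00847). Mki67 and Top2a, markers of dividing cells, did not pass (-0.10 and -0.39, adjusted p = 0.716 and 0.388). The lists that follow had shares of 0 to 20% against 7.22% of all autosomal genes. Of 20 Wnt pathway genes 2 were lower (10%), the transcription factor Tcf7 (-1.70 ± 0.25, adjusted p = 0.0012) and the receptor Fzd2 (-0.75 ± 0.20, adjusted p = 0.0316). Of 18 Nodal and BMP genes, the ligands Bmp2 (-2.05 ± 0.50, adjusted p = 0.025) and Bmp4 (-1.11 ± 0.20, adjusted p = 0.00354) were lower and Lefty2 was higher. Bmp4 and Hand1 were also the 2 lower genes of 16 streak and early mesoderm genes (12.5%), none of which was higher. Of 16 genes of the ERK early response, the immediate early gene Fos was lower, at 9.53 and 10.7 CPM in Pgk12.1 and 23.0 and 82.7 CPM in E14 (-2.42 ± 0.49, adjusted p = 0.00788), and the phosphatase gene Dusp4 was higher (0.89 ± 0.23, adjusted p = 0.0252). The chaperone Hsp90aa1, on distal chromosome 12, was higher, at 1734 and 1861 CPM in Pgk12.1 and 613 and 888 CPM in E14 (1.26 ± 0.17, adjusted p = 0.000687), as was the small heat shock gene Hspb1. They were the 2 higher of 15 heat shock and stress genes, with Fos the 1 lower. The cell death gene Bax was the 1 of 19 p53 targets that was higher (5.26%), and the cohesin subunit Stag3 the 1 of 13 germline genes (7.69%). None of 21 lysosomal or 5 gut, lung, liver and pancreas genes passed. Chromosomal position is given here for some genes only. On chromosomes 5, 8 and 12 together 10.1% of tested genes were higher, against 2.6% on the other 16 autosomes. The part of position in the list shares was not tested.

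The largest changes are given for genes that reached 10 CPM in the higher line. Apart from H19 and Plagl1, the largest rises were in genes at low levels. Among symbols ending in Rik, which the rule for named genes left out, 6330406I15Rik had 120 counts in Pgk12.1 and 2 in E14 (ratio 92.6, interval 25.1 to 773.5), and 9030617O03Rik 58 and 2 (ratio 44.8, interval 11.8 to 378). Zfp804a had 63 counts in Pgk12.1 and 1 in E14 (ratio 97.2, interval 16.8 to 3901), and Dync1i1, a dynein intermediate chain, 57 and 1 (ratio 88.0, interval 15.2 to 3535). The glutamate receptor Gria4 had 58 and 3 (ratio 29.8, interval 9.72 to 149), and the circadian factor Hlf 52 and 3 (ratio 26.8, interval 8.66 to 134). The platelet chemokine Pf4 and the receptor Gfra1 were also higher (4.80 and 4.10), as was F13a1 (3.91), which had 0 counts in E14 replicate 2 and which passed in 2 of the 12 leave-one-out fits. The largest falls after Grb10 and Igf2r were Lamb3, Gbp2, Tns4, Slc35f2, Sept4, Itga11 and Sult5a1, with log2 fold changes of -4.12 to -3.01, and the ligand gene Bmp8b, with 3 counts in Pgk12.1 and 88 in E14 (95% counting interval of the E14 over Pgk12.1 ratio 6.29 to 93.9). Slc35f2, a transporter of the solute carrier family, stood at 1.91 and 2.03 CPM in Pgk12.1 and 21.7 and 27.9 CPM in E14 (-3.63 ± 0.41, adjusted p = 0.000135). The collagen receptor subunit Itga11 stood at 6.48 and 3.04 CPM in Pgk12.1 and 38.1 and 43.2 CPM in E14 (-3.04 ± 0.47, adjusted p = 0.00164). Both were far apart between lines.

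The differences were not spread evenly over the genome. The share of tested genes that were higher was 18.2% on chromosome 12, 9.88% on chromosome 8, 7.01% on chromosome 13, 6.22% on chromosome 6 and 5.5% on chromosome 5, and 1.18% to 2.76% on each other autosome, against 3.82% over all autosomes. The share that were lower was greatest on chromosomes 15 and 11, at 5.87% and 5.86%, and least on chromosome 8, at 0.75%, against 3.41% over all autosomes. Chromosome 8 had a median log2 fold change 0.35 above the autosomal median (0.33 to 0.38 over the 4 pairs of single libraries), with 66 genes higher and 5 lower. All 12 of its windows of 10 Mb with at least 15 tested genes lay above the autosomal median, in undifferentiated cells too, where the chromosome stood 0.36 above. Measured against the mean of all 12 libraries, chromosome 8 stood at -0.27 in both differentiated and at -0.22 and -0.24 in the undifferentiated E14 libraries, against 0.08 to 0.17 in the 8 libraries of the 2 female lines. Chromosome 12 was raised by 0.38 in differentiated cells (0.33 to 0.39) and by 0.19 in undifferentiated cells. Measured against the mean of all 12 libraries, it stood at 0.181 and 0.182 in differentiated and -0.095 and -0.068 in undifferentiated Pgk12.1. In E14 it stood at -0.195 and -0.227 in differentiated and -0.229 and -0.189 in undifferentiated libraries. Of its genes 85 were higher and 6 lower. The 3 windows from 90 to 120 Mb stood 0.86, 0.96 and 0.82 above the autosomal median, against 0.34, 0.65 and 0.32 in undifferentiated cells. Chromosome 5 was raised by 0.17, against 0.04 before differentiation, but not evenly. Its 3 such windows beyond 120 Mb stood 0.37, 0.39 and 0.25 above the autosomal median, against 0.16, 0.14 and 0.09 in undifferentiated cells. They held 10, 14 and 9 of the 44 genes that were higher on this chromosome. Its other windows ranged from -0.11 to 0.19. Chromosome 11 was lowered by 0.20, with 59 genes lower. DNA copy number was not measured, and its part in these shifts was not tested.

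**Figure D5:**
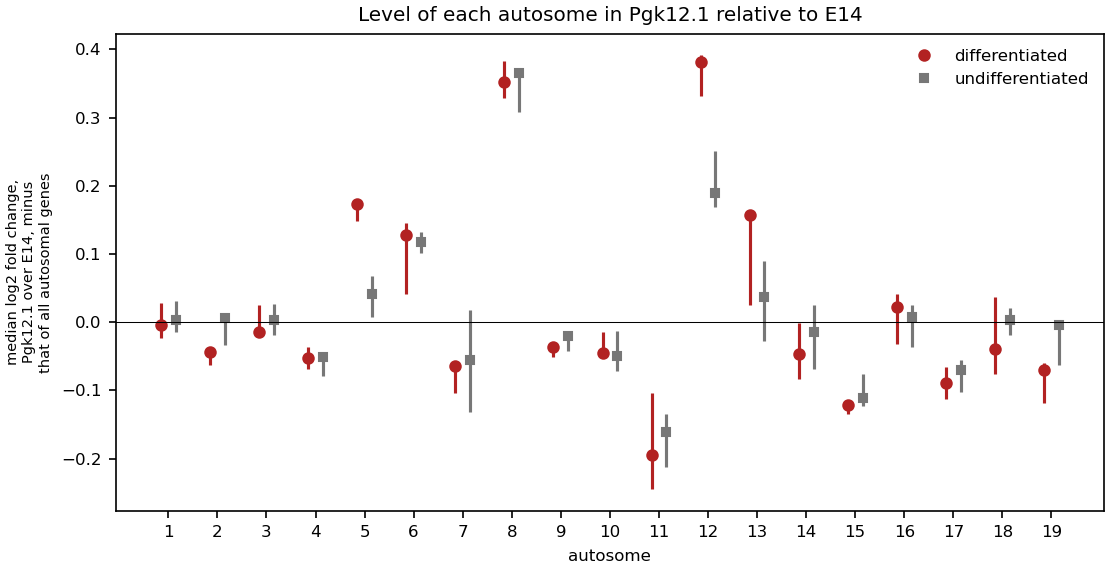
Median log2 fold change of Pgk12.1 over E14 for each autosome minus the median of all autosomal genes, in differentiated (red circles) and undifferentiated (grey squares) cells; lines span the 4 pairs of single libraries, computed over genes with at least 10 CPM. Chromosome 8 stands at 0.35 and 0.36, chromosome 12 at 0.38 and 0.19, and chromosome 11 at -0.20 and -0.16.

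Single windows stood out on chromosomes 6 and 13. The window from 70 to 80 Mb of chromosome 6, which holds Kdm3a, had 12 of 32 genes higher and a median 0.99 above the autosomal one, and 1.12 above in undifferentiated cells. The window from 20 to 30 Mb of chromosome 13 stood 0.98 above, and 22 of its 47 Hist1 histone genes were higher but 1 of its 25 other genes. No window of the 220 tested lay more than 0.5 below the autosomal median.

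Part of the difference between the lines was already present before differentiation. In undifferentiated cells 653 autosomal genes differed between Pgk12.1 and E14 (5.5% of those tested), 313 higher (2.64%) and 340 lower (2.87%) in Pgk12.1. Of the 453 genes higher after differentiation, 98 had been higher before it (21.6% of the 453 and 31.3% of the 313 higher in undifferentiated cells), and of the 404 lower genes, 68 had been lower (16.8% and 20% of the 340 lower in undifferentiated cells). Whether or not they passed, 327 of the 453 and 315 of the 404 had the same sign before differentiation. The undifferentiated Pgk12.1 libraries held 946043 and 1034300 counts, and the part of depth in the overlap was not tested. In the test of the change itself, 136 autosomal genes (1.15%) had a difference between lines that changed on differentiation, 86 upwards (0.725%) and 50 downwards (0.422%), and with Rn45s and Lars2 kept in the scaling, 111 upwards and 40 downwards. This count was 17 and 13 without differentiated Pgk12.1 replicate 1 or 2, 1691 and 1126 without differentiated E14 replicate 1 or 2, 15 and 35 without undifferentiated Pgk12.1 replicate 1 or 2, 24 and 29 without undifferentiated E14 replicate 1 or 2, and 88 without differentiated RlimKO replicate 1. Among the 857 genes that differed from both E14 libraries, 50 of the higher and 24 of the lower ones were in that set, and H19, Plagl1, Grb10, Igf2r, Slc35f2, Tdgf1 and Bnip3 were among them. Kcnq1ot1 and Kdm3a, whose log2 fold changes were 1.03 and 1.04 before differentiation, were not.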

How the data were processed

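The authors deposited a table of raw counts per gene symbol for 12 libraries. Per the labels' protocols, RNA was reverse-transcribed with template switching, amplified, tagmented and amplified again, with no molecular identifiers described. TopHat2 2.0.12, bcl2fastq 2.16.0.10, edgeR 3.10.0 and HTSeq 0.6.1p1 were used with the mm10 genome, per the submitters' processing notes; the annotation, and whether counting used strand, are not given in the sources used here, so overlapping and antisense genes, and near-identical copies such as histone genes, are uncertain. The 5 rows that name no gene (45.4% to 53.3% of reads in no feature and 0.241% to 0.926% ambiguous), Rn45s and Lars2 were dropped.

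Of 23336 symbols, 23107 (99.0%) were placed on GRCm38 through GENCODE vM21, 1951 of them through older symbols in RefSeq GRCm38.p6. Libraries held 2011920 to 5401940 gene counts. Counts were fitted in R 4.3.3 with edgeR 4.0.16 (TMM scaling, default expression filter, quasi-likelihood F test) on all 12 libraries with 6 group means, and again with 7 means; limma 3.58.1 and DESeq2 1.42.0 served as alternatives. Fits were also run on simulated data in which every group was drawn with the same spread. That simulation could not test the effect of the wide spread between the differentiated E14 libraries. CPM divides a gene's count by the TMM-scaled library size and multiplies by 1e6. SE is the fold change over the square root of F. Ratios with 1 to 3 counts in a group carry a 95% counting interval, which covers counting error only. An exact permutation test of 2 against 2 cannot go below 0.33.

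The members and the 30 gene lists were chosen with earlier results of these data known. Named genes are the 10 largest rises and falls whose groups did not overlap and whose higher group reached 10 CPM, up to 5 members per list with the smallest p, the first 2 of each list, and called lineage transcription factors, leaving symbols of predicted genes (Gm and a number, or ending in Rik) and pseudogenes out of the largest changes. Added after their values were seen: the other called imprinted, pluripotency, hypoxia and fibroblast genes, Ccnd1, Utf1, Lin28a, Klf5, Sall4, Peg3, Mest, Airn, Gnas, Sox2, Klf4, Zfp42, the Hedgehog, metallothionein, Gbp1 and histone genes, and the windows and chromosomes discussed.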

Additional observations from a re-analysis of the deposited data

Results flagged for a closer look

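A difference between Pgk12.1 and E14 that changed on differentiation, by the test of that change over all genes, was found for 26 of the named genes. The values below are log2 differences, differentiated minus undifferentiated, each with an adjusted p below 0.05.

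Among imprinted genes the change was 5.75 for H19, 4.36 for Plagl1, -4.3 for Igf2r, -3.71 for Grb10 and -3.72 for Zim1. Zim1 was at 8.48 and 4.71 CPM in undifferentiated Pgk12.1, against 2.13 and 0.42 CPM in undifferentiated E14 cells. Among pluripotency and Nodal genes it was 2.4 for Tdgf1, 2.34 for Dppa2 and 1.85 for Lefty2. Among hypoxia genes it was 2.22 for Bnip3, 1.49 for Pdk1, 1.27 for Ldha and -0.92 for Slc2a1, and the replication genes Mcm7 and Mcm6 had 0.863 and 0.847.

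For lineage genes it was -4.35 for Apom, 1.27 for Col4a1, 2.38 for Col9a2 and 2.03 for Nes. Slc35f2 had -3.11. Gfra1 had 9.73, a fitted value that rests on 0 counts in both undifferentiated Pgk12.1 libraries and gives no bound. Mt2 had 1.91, Hist1h4a 2.76 and Hist1h2af 3.9.

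Tagln, Lef1 and Ptch1 had 3.06, 2.49 and 1.3, without differing between the lines after differentiation: the smooth muscle gene Tagln stood at 687 and 678 CPM in differentiated Pgk12.1 and 754 and 662 CPM in differentiated E14, against 0 and 5.65 CPM in undifferentiated Pgk12.1 and 26.2 and 26.5 CPM in undifferentiated E14.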

How the results depend on the processing

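The 1080 genes of the 6-mean model became 1626 with no expression filter, 30 when tested against a log2 fold change of 1, 496 without the RlimKO libraries (an alternative chosen after seeing the data), 3 in the 4-library model, and 166 to 4030 when 1 library was left out. The 857 genes that passed against both E14 libraries (453 higher, 404 lower) became 392 with DESeq2 (205 and 187), 52 with limma-voom sample weights (10 and 42), 28 against a log2 fold change of 1 (19 and 9), 487 without the RlimKO libraries, 3 in the 4-library model and 165 to 808 when 1 library was left out, with 133 higher and 78 lower without Pgk12.1 replicate 1 and 119 and 46 without replicate 2; no value exists without an E14 library of that comparison. The 136 genes whose difference changed on differentiation became 539 with no filter, 234 with voom weights, 8 against a log2 fold change of 1, 20 in the model of the 8 Pgk12.1 and E14 libraries, the same 20 without the RlimKO libraries, and 13 to 1691 when 1 library was left out. The causes of these shifts were not tested. With the replicate number as a block, the 3 counts were 1106, 882 and 148, each within 1.5 times its main value. The numbers did not pair the samples (correlations of same-numbered deviations -0.07 to 0.108). RLE factors, autosomal TMM, a 1 CPM filter and keeping Rn45s left the 3 counts within 1.5 times. Over the fits that left out 1 library, 5 genes that had not passed ranged across 0: Afp from -0.82 to 0.69 and Id1 from -1.41 to 1.30, highest without E14 replicate 2, and Hbb-bh1 from -2.23 to 3.00, Pecam1 from -1.58 to 0.84 and Cdh5 from -1.95 to 2.93, highest without E14 replicate 1. None of the 105 named genes that rose or fell turned direction in the alternative fits compared gene by gene. Those left out the DESeq2 fit and the fit against a log2 fold change of 1. The 105 genes were selected for 1 direction against each E14 library, so leaving out an E14 library could hardly turn them. In the 4-library model 3 of the 105 passed, 101 did not and Gdf3 was not tested. Depth limits genes at a few counts, whose intervals span over 10-fold.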

Other observations

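Replication-dependent histone genes, the Hedgehog pathway, metallothioneins and guanylate-binding proteins were looked at after their values were seen, and are given as values only. Of 57 histone genes of the Hist1 to Hist4 clusters, 24 were higher in differentiated Pgk12.1 against both E14 libraries, where 3.82% of all autosomal genes were, and none lower, with a median log2 fold change of 1.15, against 0.14 in undifferentiated cells. Their summed level was 3548 and 3662 CPM in Pgk12.1 and 2405 and 1593 CPM in E14. Hist1h4a stood at 36.2 and 53.8 CPM in Pgk12.1 and 8.86 and 4.96 CPM in E14 (2.77 ± 0.36, adjusted p = 0.000488). The messages of these genes end in a stem-loop and mostly carry no poly(A) tail, and near-identical copies share reads.

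Hhip, a Hedgehog-binding protein that is itself a target of the pathway, stood at 35.4 and 33.0 CPM in Pgk12.1 and 6.64 and 3.31 CPM in E14 (2.87 ± 0.37, adjusted p = 0.000438). Gli1, the transcription factor that reports pathway activity, stood at 19.1 and 12.7 CPM in Pgk12.1 and 3.54 and 2.90 CPM in E14 (2.33 ± 0.41, adjusted p = 0.00321). The receptor gene Ptch1, another target, did not pass (0.26 ± 0.21, adjusted p = 0.481). Hhip lies on chromosome 8, which was raised as a whole.

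The metallothionein genes Mt1 and Mt2, also on chromosome 8, were higher. Mt2 stood at 51.4 and 64.9 CPM in Pgk12.1 and 7.08 and 12.2 CPM in E14 (2.50 ± 0.26, adjusted p = 7.04e-05), and Mt1 had 1.42 ± 0.26 (adjusted p = 0.00455). The interferon-inducible GTPase genes Gbp1 and Gbp2, on chromosome 3, were lower. Gbp2 stood at 2.29 and 0.507 CPM in Pgk12.1 and 19 and 26.3 CPM in E14 (-3.88 ± 0.69, adjusted p = 0.00358), and Gbp1 had -2.59 ± 0.53 (adjusted p = 0.00991). Undifferentiated Gbp1 also differed, at 4.24 and 1.89 CPM in Pgk12.1 and 27.6 and 28.6 CPM in E14 (-3.20, adjusted p = 0.010).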
